A study of Mus musculus with 18 samples.

Results

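Ubqln1-/- splenic B cells were examined 4 hr after ligation of the B-cell receptor (BCR), by comparing their 3 anti-IgM libraries with their 3 resting libraries, 6 of the 18 RNASeq libraries of the study. The compared samples are defined by their labels and not by their values, and all genes of the count tables were used. The choice of this comparison, of the gene lists and of the tests was made with earlier results of these data known. Both groups carry the same germline deletion, made by removing exon 2 of Ubqln1 in C57BL/6 ES cells and labelled C57BL/6 N, so the knockout was present in every cell of the mouse and not in B cells alone. The mice were at least 8 weeks old and the B cells were taken from spleen with a cell isolation kit. The anti-IgM group was given an F(ab)2 antibody to IgM at 10 μg/mL, which crosslinks surface IgM, and the resting group received no stimulus. Also used for comparison were WT cells given the same anti-IgM or no stimulus (6 libraries) and Ubqln1-/- cells given 20 μg/mL LPS, a TLR4 ligand, for the same time (3 libraries). The wells of a sample were pooled before RNA purification, and the labels do not say which samples came from separate mice. The paper's legend for its RNASeq levels describes independent experiments and a paired test. The SEs, p-values and intervals given here are from a fit without pairing, and they measure the spread between these samples. Exceptions are named as having the replicate block, a term that pairs same-numbered samples.

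The BCR signals through the kinases LYN and SYK, which engage calcium and NFAT, RAS and ERK, PI3K and the NF-kB module. In resting B cells this leads within hours to transcription of immediate early regulators, to MYC and to the enlargement of the ribosome and metabolic machinery that precedes division, while genes of quiescence and of recirculation are turned down. UBQLN1 is a cytosolic chaperone that binds the hydrophobic segments of mitochondrial and other membrane proteins and can hand them to the proteasome.

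The counts of the 6 libraries summed to 20604152 to 21808529 in resting and 21833046 to 31338757 in anti-IgM-treated Ubqln1-/- cells. Levels are given as RPKM, the count per kilobase of gene and per 1e6 counts of the TMM-scaled library, and changes as log2 fold changes ± SE. Adjusted p-values are from edgeR's quasi-likelihood test with Benjamini-Hochberg adjustment over 14161 tested genes. Values scaled in this way show a gene's share of the RNA of a sample, so a change in the amount of RNA per cell would not be seen, and in bulk RNA fewer cells of a type cannot be told apart from less RNA per cell.

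The B-cell identity of the libraries was checked first. The summed level of 9 B-cell markers was 8870.0 to 9370.0 CPM (counts per 1e6 counts of the same scaled library) in resting Ubqln1-/- cells and 3720.0 to 4100.0 CPM after anti-IgM, where 7 of the 9 fell and only Blk rose. Of the T-cell markers, Cd3e, Cd3d, Cd3g, Cd4, Cd8a, Cd8b1 and Bcl11b were each under 1 CPM in all 6 libraries, and the summed level of that list, 43.2 to 69.9 CPM at rest and 131 to 227 CPM after anti-IgM, came almost entirely from Lck. All 8 neutrophil markers were under 1 CPM in all 6 libraries. The 10 macrophage and monocyte markers summed to 36.7 to 58.5 CPM at rest and 27.1 to 29.6 CPM after anti-IgM, and their part in the results was not tested. The stromal and endothelial list summed to 242 to 267 CPM at rest and 36.4 to 46.1 CPM after anti-IgM, mostly through Pecam1, an adhesion molecule that B cells also carry, while 5 of its 7 genes stayed under 1 CPM in every library.

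The library labelled resting replicate 3 of the Ubqln1-/- group stood apart in another way. It alone held 37 genes at over 1 CPM and over 10 times their level in any of the other 17 libraries. These were led by Lypd8 (19.0 CPM), Clca1 (18.9 CPM) and Car1 (10.8 CPM), with the mucin gene Muc2 at 4.6 CPM, all known from intestinal epithelium. No other library held such a gene. Together they made up 140.0 CPM, none of the 37 passed the filter on low counts, and so none entered a test. That follows closely from picking genes high in 1 library alone. Whether tested genes also held reads of intestinal cells was not tested. The 37 genes were chosen after their values were seen. Without this library 8730 genes had an adjusted p under 0.05 and 483 passed the thresholds of the study, compared with 9251 and 516 with it. Leaving out each sample of the comparison in turn gave 8487 to 8730 and 442 to 511 genes, so a loss of this size was not particular to this library.

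Ubqln1 itself, on chromosome 13 (58176156 to 58215653, GRCm38), was the first gene read. Its level was 25.2, 24.8 and 28.8 RPKM in the 3 resting and 30.2, 34.0 and 34.8 RPKM in the 3 anti-IgM-treated Ubqln1-/- libraries, against 62.3 to 64.2 RPKM in resting and 86.5 to 92.0 RPKM in anti-IgM-treated WT libraries. The knockout libraries lay below all WT libraries of the same condition (log2 difference -1.27 at rest, adjusted p = 6.68e-08, and -1.42 with anti-IgM, adjusted p = 1.1e-08, edgeR). The counts are summed over the exons of the gene, so the remaining reads do not show whether exon 2 was present. Within the knockout the transcript that remained rose with anti-IgM (0.33 ± 0.07, adjusted p = 0.000731).

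Anti-IgM altered most of the expressed genes of Ubqln1-/- B cells. Of the 14161 genes tested, 4660 rose (32.9%) and 4591 fell (32.4%) at an adjusted p under 0.05, together 65.3%, so a gene list has to be read against these shares. Most changes were small, since 1360 of the genes that rose and 1514 of those that fell had a log2 fold change beyond 1, and 65 and 51 went beyond 3. The thresholds of the study, a log2 fold change beyond 2 and an adjusted p under 0.001, were passed by 254 genes upward (1.79%) and 262 downward (1.85%). With the replicate block 10010 genes had an adjusted p under 0.05 (edgeR) and 550 passed these thresholds. Without the block the median over all genes tested was -0.02. Samples that did not overlap between the groups were found for 35.6% of all genes upward and 35.7% downward, so that a lack of overlap is by itself no mark of a gene. Past the thresholds, 38 of the 516 genes could not be named and are counted only.

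The regulators of the immediate early response are shown with the sequence before their starts, because they are the textbook first targets of BCR signals. The windows are RefSeq promoters of GRCm38.p6, each from 250 bases before to 50 bases after a start, and the capitals mark the matches named below for each window, searched on both strands. GC boxes are not marked. In the Egr2 window, the third of 5 starts, at chr10:67537619-67537918 (plus strand) the capitals are a CArG box, the element bound by SRF, which begins 72 bases before the start. In the Fosl2 window chr5:32136222-32136521 (plus strand) they are NF-kB matches that overlap each other, on opposite strands, and an EGR match 79 bases before the start. In the Nr4a2 window chr2:57123954-57124253 (minus strand) they are an EGR match 74 bases before the start.
Egr2: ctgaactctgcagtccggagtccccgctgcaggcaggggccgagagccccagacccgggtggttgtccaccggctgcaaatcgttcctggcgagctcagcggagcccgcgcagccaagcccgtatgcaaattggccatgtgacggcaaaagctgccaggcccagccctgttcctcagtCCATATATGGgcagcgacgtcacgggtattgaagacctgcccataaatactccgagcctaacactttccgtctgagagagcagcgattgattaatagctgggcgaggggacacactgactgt
Fosl2: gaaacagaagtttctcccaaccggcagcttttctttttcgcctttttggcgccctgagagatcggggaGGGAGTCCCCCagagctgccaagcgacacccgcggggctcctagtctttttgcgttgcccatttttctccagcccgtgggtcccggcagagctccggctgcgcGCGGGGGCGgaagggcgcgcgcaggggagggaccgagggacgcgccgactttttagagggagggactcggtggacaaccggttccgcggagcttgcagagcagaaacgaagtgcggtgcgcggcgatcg
Nr4a2: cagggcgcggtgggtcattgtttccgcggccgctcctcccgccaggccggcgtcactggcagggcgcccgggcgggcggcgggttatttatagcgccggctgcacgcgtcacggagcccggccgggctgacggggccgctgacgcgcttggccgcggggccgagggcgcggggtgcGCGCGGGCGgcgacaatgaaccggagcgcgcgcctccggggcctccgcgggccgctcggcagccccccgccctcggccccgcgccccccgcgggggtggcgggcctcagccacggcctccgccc

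The motifs were CRE (TGACGTCA), AP-1 (TGANTCA), EGR (GCGNGGGCG), E-box (CACGTG), GC box (GGGCGG), a palindrome written TTCNNNGAA, the NF-kB site and the CArG box, and an EGR match can overlap a GC box. Promoter windows were found for 10067 of the 14161 tested genes, among them 174 of the 254 genes that rose past the thresholds, 182 of the 262 that fell and 16 of the 21 immediate early genes. The E-box, to which MYC and MAX bind, was in a window of 16.1% of the genes that rose and 7.14% of those that fell, against 11.8% of tested genes and 8.09% of all genes in the promoter table, and 9 of 39 nucleolar genes held it (23.1%). The EGR motif was in 16.1% of the genes that rose, 8.79% of those that fell, 1204 of the 10067 tested genes and 6.27% of all. AP-1 was in 7.47%, 12.6%, 6.14% and 8.97% of the same 4 sets, the NF-kB site in 11.5%, 15.9%, 9.66% and 7.81%, and TTCNNNGAA in 6.9%, 13.7%, 8.35% and 9.55%. CRE was in 2.87%, 0.549%, 3.62% and 2.03%, the CArG box in 1.72%, 1.1%, 1.55% and 1.81%, and the GC box in 73.0%, 49.5%, 67.3% and 38.2%. Of the 16 immediate early genes with a window, 2 held a CArG box, 5 an EGR match, 7 an NF-kB match, 2 an E-box and 13 a GC box, and none held CRE, AP-1 or TTCNNNGAA. These shares describe the letters of the windows and were not tested.

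Among immediate early genes the largest rises were those of Egr2, Fosl2 and Nr4a2. Egr2, a zinc finger regulator that restrains antigen-receptor responses, was at 6.82, 8.35 and 7.07 RPKM at rest and at 176, 116 and 134 RPKM after anti-IgM (4.26 ± 0.19, adjusted p = 6.94e-11). Every stimulated sample was more than 10 times above every resting one. Of 20 tested genes of the list 13 rose and 1 fell (65.0% and 5.0%, against 32.9% and 32.4% of all genes). Their median was 1.14 against -0.02 over all genes, and 9 passed the thresholds upward. Egr3 (2.58 ± 0.21) and Egr1 (2.4 ± 0.33) rose with it, Egr1 from between 11.3 and 12.2 RPKM to 90.4, 49.3 and 47.5 RPKM. The orphan nuclear receptors Nr4a1 (2.53 ± 0.22), Nr4a2 (3.49 ± 0.43) and Nr4a3 (3.35 ± 0.25) rose as well, Nr4a1 being the one with the highest stimulated level, 271 to 347 RPKM. Among AP-1 subunits Fosl2 went from 0.614, 0.954 and 0.995 RPKM to 8.32, 11.0 and 9.89 RPKM (3.51 ± 0.26) and Fosl1 rose too (2.48 ± 0.34), whereas Fos (0.41, adjusted p = 0.341), Fosb (0.61, adjusted p = 0.193) and Jun (-0.32, adjusted p = 0.0863) did not pass the edgeR test. Jund, which codes for an AP-1 subunit, was the gene that fell (-1.18), and 2 of the list fell with the replicate block and without anti-IgM replicate 1.

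Genes that feed back on the signalling pathways rose beside them. In the list of MAPK and G-protein regulators 9 of 13 rose and 1 fell, with a median of 1.03. These shares were 69.2% and 7.69%, against 32.9% and 32.4% of all genes. None of the list fell without anti-IgM replicate 1 or resting replicate 1. Spry1, an inhibitor of RAS and ERK signalling, went from 0.685, 0.485 and 0.572 RPKM to 3.64, 5.24 and 5.24 RPKM (3.02 ± 0.29), and Rgs1, which shortens chemokine receptor signals, from between 3.57 and 4.45 RPKM to between 24.4 and 28.2 RPKM (2.76 ± 0.2). The phosphatase gene Dusp6 gave 0.0 (adjusted p = 0.992, edgeR). Of 14 genes for NF-kB subunits and inhibitors 11 rose and 2 fell (78.6% and 14.3%, against the same shares of all genes). Nfkbie, coding for IκBε, rose from 50.5, 54.2 and 48.1 RPKM to 170, 169 and 165 RPKM (1.72 ± 0.08), Tnfaip3, coding for the inhibitor A20, rose by 1.45 ± 0.09 and Rel by 1.46, while the coactivator gene Bcl3 fell from between 51.5 and 59.7 RPKM to between 15.9 and 22.5 RPKM (-1.58 ± 0.11). In the calcium and NFAT list 3 of 9 rose and 4 fell (33.3% and 44.4%, against 32.9% and 32.4% of all genes). There the NFAT target Rcan1 rose (1.51 ± 0.13) with Nfatc1 (0.98 ± 0.06), and Ppp3ca, the catalytic subunit of calcineurin, fell from 84.8, 82.0 and 84.2 RPKM to 28.7, 30.3 and 31.7 RPKM (-1.47 ± 0.07).

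Of 13 tested genes for the BCR complex and its coreceptors 9 fell and 2 rose, with a median of -1.41. These shares were 69.2% and 15.4%, against 32.4% and 32.9% of all genes. The signalling chain Cd79a was at 1060, 946 and 1060 RPKM at rest and at 352, 288 and 326 RPKM after anti-IgM (-1.67 ± 0.13, adjusted p = 9.82e-09), and its partner Cd79b fell as well (-1.41 ± 0.11). Of the inhibitory receptors in the list Siglecg went from 180, 157 and 164 RPKM to 25.6, 23.7 and 24.8 RPKM (-2.76 ± 0.2), Pirb changed by -2.29 ± 0.15 and Lair1, at no more than 0.418 RPKM and with 4, 2 and 0 counts after anti-IgM, by -3.75 ± 0.54. The genes that rose were Cd72 (0.74) and Cd5, an inhibitory coreceptor carried by T cells, B-1 cells and anergic B cells. Cd5 was at 0.733, 0.67 and 0.757 RPKM at rest and at 10.7, 7.55 and 8.67 RPKM after anti-IgM (3.64 ± 0.26). The immunoglobulin genes Ighm and Ighd were not analysed here.

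Downstream of the receptor 17 of 25 genes fell and 4 rose, with a median of -0.63. These shares were 68.0% and 16.0%, against 32.4% and 32.9% of all genes. Syk, the kinase that docks on the phosphorylated BCR, fell from 239, 237 and 243 RPKM to 46.3, 45.7 and 48.2 RPKM (-2.36 ± 0.09, adjusted p = 3.46e-11). The 3 stimulated samples lay within a narrow range and far below the resting ones. The adaptor Bank1 fell from between 160 and 196 RPKM to between 40.3 and 43.0 RPKM (-2.1 ± 0.1), and Lyn (-1.13), Btk (-0.96) and Plcg2 (-0.88) fell less. Fyn, another SRC-family kinase, moved the other way, from 27.9, 40.6 and 46.6 RPKM to 150, 169 and 206 RPKM (2.19 ± 0.3), as did Pik3ap1, the PI3K adaptor BCAP (1.39 ± 0.1), Vav3 (1.6) and Blk (0.41).

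The 12 largest rises among named genes with a mean of at least 10 CPM were those of genes with unlike roles. Il1r1, the receptor for interleukin 1 (chromosome 1, 40222480 to 40316201), had 7, 10 and 12 counts at rest, 0.0659 to 0.113 RPKM, and 5.34, 2.0 and 1.98 RPKM after anti-IgM (5.11 ± 0.54). Spp1, which codes for the secreted phosphoprotein osteopontin (chromosome 5, 104435111 to 104441053), went from 2.14, 3.64 and 3.12 RPKM to 75.8, 75.3 and 93.9 RPKM (4.78 ± 0.18), and Plau, the urokinase protease, from between 1.29 and 2.06 RPKM to 28, 42.4 and 49.1 RPKM (4.51 ± 0.41). In the plot of the largest changes no sample of one condition reaches the other, and replicate 1 of anti-IgM is the highest sample for 8 of the 12 rises. Further rises were those of Gfi1, a transcriptional repressor, from between 2.34 and 2.51 RPKM to between 30.5 and 37.6 RPKM (3.82 ± 0.18), of Pdcd1, the inhibitory receptor PD-1, from 0.663, 0.371 and 0.27 RPKM to 8.78, 3.5 and 3.88 RPKM (3.63 ± 0.51), and of the receptor kinase Axl (3.92 ± 0.4). The ubiquitin ligase family gene Lonrf3 (4.45 ± 0.45), the integrin Itga9 (3.9 ± 0.31), the endothelial lipase Lipg (3.57 ± 0.4) and the long non-coding RNA A430093F15Rik, beside Cd5 on chromosome 19 (10740947 to 10786043, 4.07 ± 0.34), complete the 12. Without strand information, reads of A430093F15Rik and of overlapping genes cannot be told apart.

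**Figure D1:**
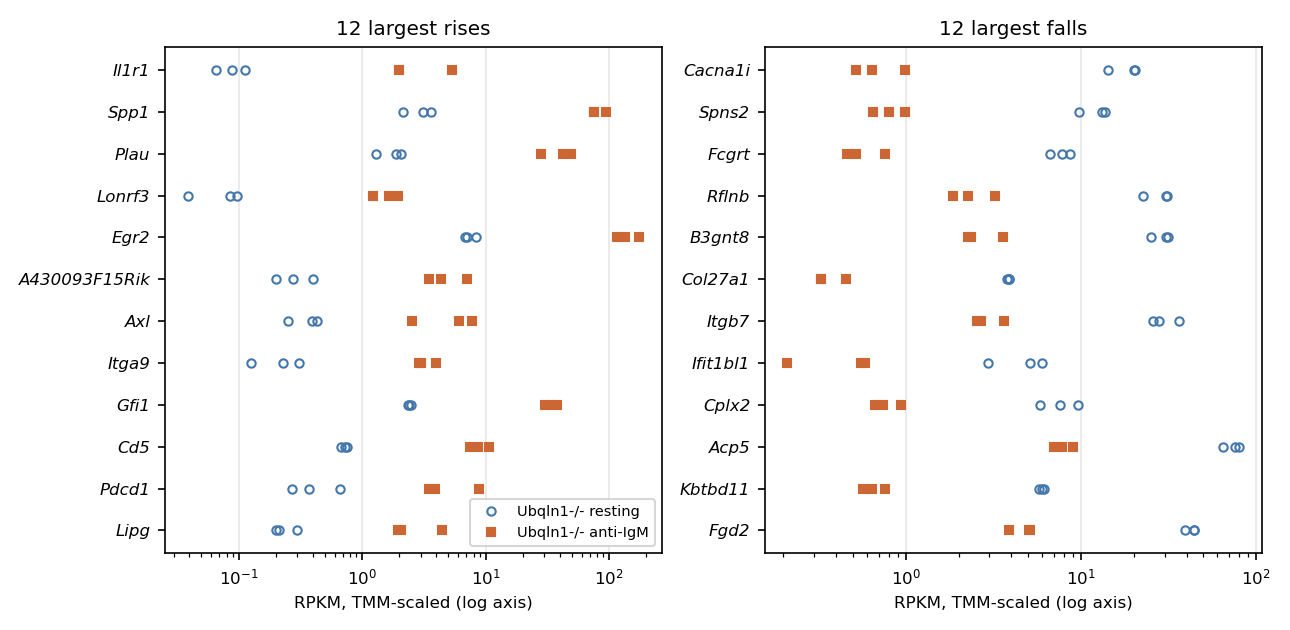
RPKM of the 12 genes with the largest rises and the 12 with the largest falls, on a log axis, with 1 open circle for each of 3 resting and 1 square for each of 3 anti-IgM-treated Ubqln1-/- samples. The groups do not overlap for any gene, as was required for their choice, and Spp1 (75.3 to 93.9 RPKM) and Egr2 (116 to 176 RPKM) reach the highest stimulated levels on the left.

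Cytokine genes moved in both directions, 42.1% of the secreted factors upward and 21.1% downward, against 32.9% and 32.4% of all genes. Of 19 tested secreted factors 8 rose and 4 fell, and 5 passed the thresholds upward, which besides Spp1 and Plau were the chemokine genes Ccl4 (8.41 to 10.7 RPKM at rest, 78.5 to 146 RPKM with anti-IgM, 3.47 ± 0.26) and Ccl3 (3.2 ± 0.33) and the angiogenic factor Vegfa (3.4 ± 0.21). Ltb, the lymphotoxin subunit that maintains lymphoid tissue, fell from 290, 302 and 322 RPKM to 66.0, 59.7 and 69.4 RPKM (-2.23 ± 0.12). The interleukin genes Il6 (-0.52, adjusted p = 0.665) and Il10 (0.26, adjusted p = 0.369) did not pass the edgeR test. Of 30 cytokine receptor genes 10 rose and 11 fell (33.3% and 36.7%), near the shares of all genes (32.9% and 32.4%). Il2ra, the high-affinity chain for interleukin 2, rose from 11.8, 11.8 and 8.61 RPKM to 48.8, 59.5 and 56.8 RPKM (2.36 ± 0.2) and Il7r rose by 2.79 ± 0.31. Il10ra fell from 55.4, 58.2 and 61.6 RPKM to 10.8, 9.73 and 11.4 RPKM (-2.46 ± 0.17), and the interferon-gamma receptor chains Ifngr1 (-1.03) and Ifngr2 (-0.95) and the costimulatory receptor Cd40 (-0.92) fell less.

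Surface molecules of activation were split. Among 18 tested genes 9 rose and 6 fell (50.0% and 33.3%, against 32.9% and 32.4% of all genes). Their median was 0.37, or 0.04 without resting replicate 3. Cd83 rose from 90.4, 129 and 132 RPKM to 468, 447 and 502 RPKM (2.01 ± 0.16), Cd69 by 1.13 ± 0.15 and the costimulator Cd86 by 1.22. Icosl, the ligand for ICOS on T cells, fell from 130, 124 and 142 RPKM to 19.9, 16.0 and 21.4 RPKM (-2.79 ± 0.16). The antigen presentation genes fell in 8 of 11 cases (72.7%, against 32.4% of all genes), with a median of -1.03. The 2 that rose were the class II chains H2-Aa (0.51 ± 0.16) and H2-Eb1 (0.45). Without anti-IgM replicate 2 or 3 or resting replicate 1 or 2, only 1 gene of the list rose. The editing molecules H2-Oa (-1.33 ± 0.12), H2-Ob (-1.08 ± 0.1) and H2-DMb2 (-1.22 ± 0.12) and the protease Ctss (-0.92 ± 0.08) fell. The invariant chain gene Cd74, the highest of all at 6220 to 7660 RPKM at rest, gave -0.31 ± 0.13 (adjusted p = 0.0436, edgeR). That call was lost without the filter on low counts and without any 1 of 5 of the 6 samples. It was kept with the replicate block (adjusted p = 0.000286, edgeR).

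Receptors for homing fell in 11 of 20 cases and rose in 4, with a median of -0.49. These shares were 55.0% and 20.0%, against 32.4% and 32.9% of all genes. Without resting replicate 1, 2 of the list rose. Itgb7, the integrin chain for gut homing, fell from 27.8, 25.9 and 36.3 RPKM to 2.54, 2.69 and 3.62 RPKM (-3.36 ± 0.31), and its partner Itga4 from between 42.4 and 44.6 RPKM to between 9.03 and 10.3 RPKM (-2.17 ± 0.12). In both of these genes the groups lay well apart. Receptors for sphingosine-1-phosphate, the lipid that guides exit from lymphoid organs, separated by member. S1pr4 (-2.2 ± 0.14) and S1pr1 (-1.19) fell, S1pr2 gave 0.02 (adjusted p = 0.974, edgeR), and S1pr3, a marker of marginal zone B cells, rose from 1.6, 2.87 and 2.49 RPKM to 21.1, 22.7 and 24.3 RPKM (3.29 ± 0.27). Spns2, which exports the same lipid, was among the 12 largest falls, from 13.7, 9.8 and 13.1 RPKM to 0.647, 0.802 and 0.986 RPKM (-3.92 ± 0.29). Of the 6 marginal zone markers Myof (2.69) and Dtx1 (0.66) also rose, Cd1d1 fell (-1.99), and Cr2 (0.29, adjusted p = 0.065) and Cd9 (-0.18, adjusted p = 0.592) did not pass the edgeR test.

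The other large falls included Cacna1i, a calcium channel subunit (chromosome 15, 80287238 to 80398292), from 20.1, 14.2 and 20.4 RPKM to 0.643, 0.518 and 0.992 RPKM (-4.69 ± 0.37), the largest fall among named genes with a mean of at least 10 CPM at rest. Fcgrt, the neonatal Fc receptor that protects IgG from degradation, fell from between 6.67 and 8.64 RPKM to between 0.46 and 0.761 RPKM (-3.75 ± 0.25). Acp5, the tartrate-resistant acid phosphatase, was at 64.6 to 79.8 RPKM at rest and at 7.05 to 9.01 RPKM after anti-IgM (-3.21 ± 0.22), the highest resting level among the 12. The remaining ones were Rflnb (-3.54 ± 0.27), B3gnt8 (-3.42 ± 0.26), Col27a1 (-3.4 ± 0.18), Ifit1bl1 (-3.32 ± 0.37), Cplx2 (-3.31 ± 0.59), Kbtbd11 (-3.19 ± 0.19) and Fgd2 (-3.19 ± 0.17).

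Of 29 regulators of B-cell fate 14 fell, 6 rose and 9 did not pass the test. The shares that fell and rose were 48.3% and 20.7%, against 32.4% and 32.9% of all genes. Pax5, the B-lineage commitment factor, went from 168, 146 and 143 RPKM to 47.4, 44.9 and 48.1 RPKM (-1.7). Ets1, which holds back plasma cell differentiation, fell from between 318 and 329 RPKM to between 83.4 and 94.8 RPKM (-1.88 ± 0.1). Irf4 rose from 77.7, 89.7 and 78.1 RPKM to 374, 356 and 391 RPKM (2.19 ± 0.08, adjusted p = 1.24e-11) and Bhlhe40 by 2.28 ± 0.15, while the plasma cell regulator Prdm1 fell (-0.64 ± 0.16). Of 21 quiescence factors 15 fell and 3 rose (71.4% and 14.3%), with a median of -1.06. Klf2, which keeps lymphocytes at rest, fell from 226, 188 and 236 RPKM to 51.4, 47.5 and 59.7 RPKM (-2.03 ± 0.17), and Foxo1 (-1.38 ± 0.09), Sesn1 (-1.32 ± 0.07) and Slfn2 (-1.1 ± 0.06) followed. Klf9 was 1 of the 3 that rose, from between 2.24 and 2.72 RPKM to between 8.54 and 10.1 RPKM (1.94 ± 0.09).

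All 44 nucleolar genes of ribosome biogenesis rose (background 32.9%), with a median of 1.53 and a range of 0.51 to 2.53. Their share of all counts was 0.502% to 0.59% in the 3 resting libraries and 1.48% to 1.6% in the 3 anti-IgM libraries. Rrp1b went from 5.88, 7.48 and 6.13 RPKM to 34.2, 40.6 and 37.8 RPKM (2.53 ± 0.16) and Gnl3, coding for nucleostemin, from 35.8, 45.0 and 40.6 RPKM to 170, 179 and 192 RPKM (2.16 ± 0.13). The enzymes that charge tRNAs rose in 18 of 20 cases (median 1.21), initiation factors in 32 of 40 (median 0.66) and cytosolic ribosomal proteins in 46 of 81, with a smaller median of 0.29. Ribosomal proteins made up no more than 1.19% of the counts of any of the 6 libraries, and since many have near-identical copies elsewhere in the genome their levels are uncertain.

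Lists of biosynthetic metabolism rose in most of their members, against 32.9% of all genes. In the serine and one-carbon list 8 of 10 rose (median 1.61), led by Shmt1 (8.26, 10.8 and 8.57 RPKM at rest, 63.0, 66.2 and 62.5 RPKM with anti-IgM, 2.79 ± 0.17) and by Psat1 (2.43 ± 0.29). Nucleotide synthesis rose in 19 of 22 genes and fell in 2, or in 1 without any 1 sample other than resting replicate 3, and the isoenzymes of CTP synthesis separated, Ctps rising from between 10.7 and 14.7 RPKM to between 44.1 and 50.7 RPKM (1.98 ± 0.15) and Ctps2 falling from between 18.8 and 19.9 RPKM to between 6.78 and 7.42 RPKM (-1.44 ± 0.11). Polyamine synthesis rose in 6 of 8, with Srm going from 30.0, 39.4 and 29.8 RPKM to 172, 181 and 180 RPKM (2.43 ± 0.16). The amino acid transporter Slc7a5 rose (2.41 ± 0.24), as did 9 of 13 transporters. In glycolysis 13 of 20 rose and 4 fell, with the lactate exporter Slc16a1 (2.41 ± 0.14) and the hexokinase Hk2 (2.25 ± 0.19) in front. Sterol synthesis rose in 16 of 22, for example Cyp51 (1.61 ± 0.13) and Sqle (1.46 ± 0.1), and the 3 that fell were the exporters Abca1 (-1.46) and Abcg1 (-2.25 ± 0.41) and the sensor Insig2 (-0.51).

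**Figure D2:**
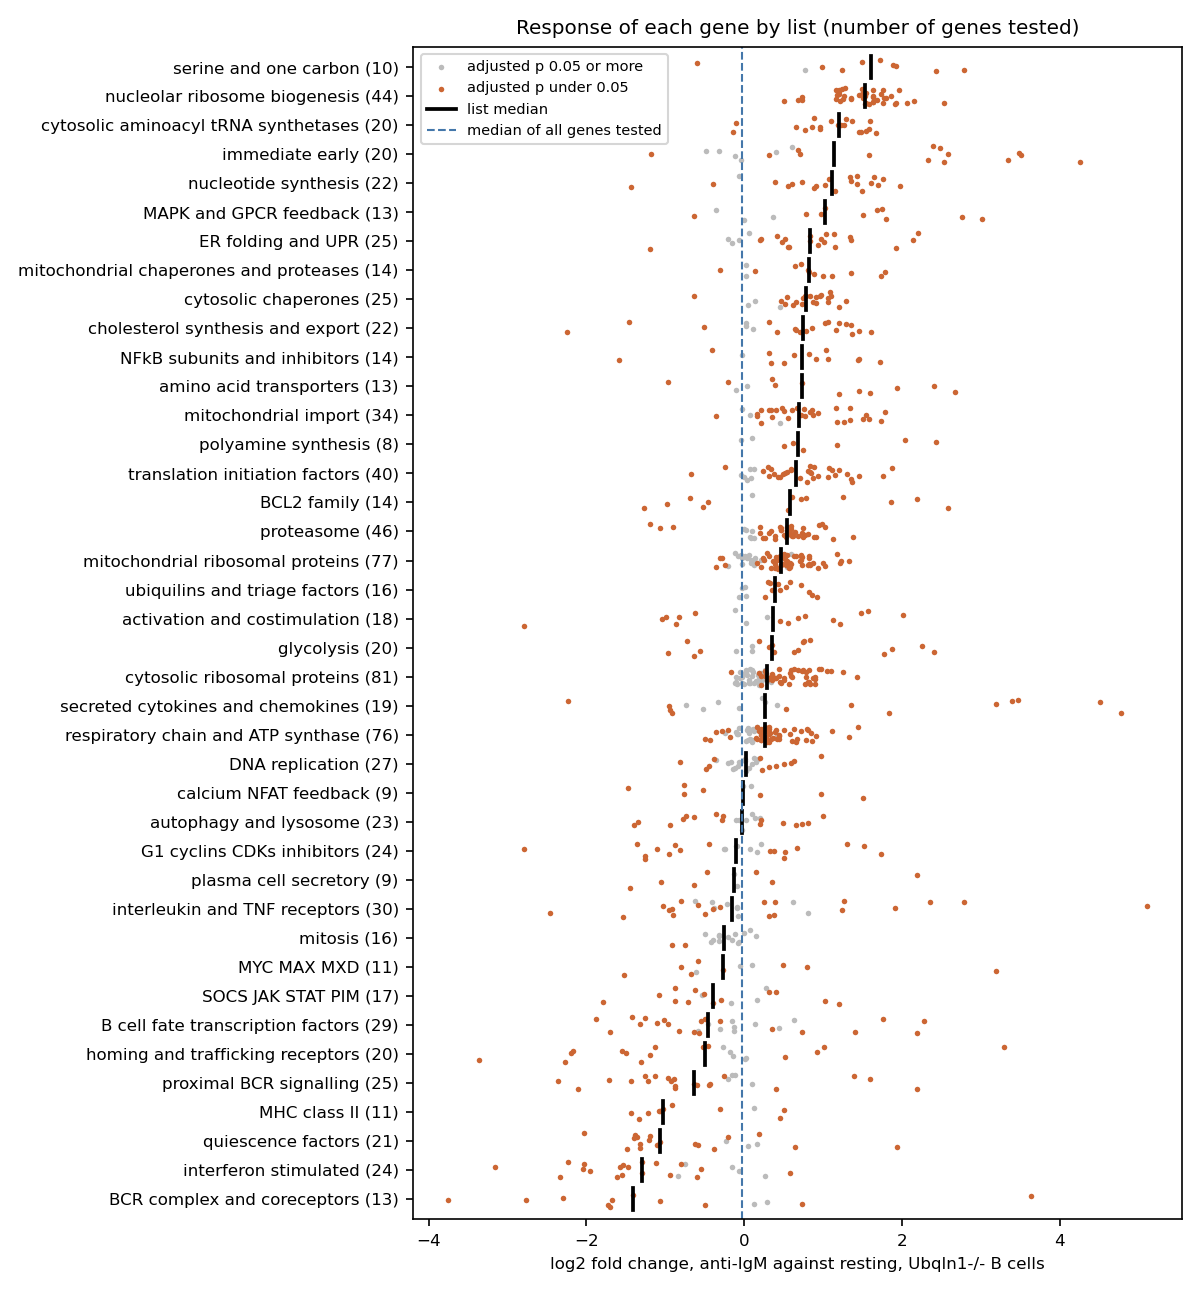
Log2 fold change of every tested member of the 40 gene lists in Ubqln1-/- B cells, with 1 point per gene, colored where the adjusted p is under 0.05 (edgeR), a bar at each list's median and a dashed line at the median of all 14161 genes (-0.02). Serine and one-carbon metabolism (1.61) and nucleolar genes (1.53) lie at the top and the BCR complex (-1.41) at the bottom.

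Because UBQLN1 handles mitochondrial precursors, the genes of mitochondria and of protein quality control were read as groups. Over all genes 32.9% rose and 32.4% fell. Mitochondrial import genes rose in 30 of 34 cases (median 0.7). Their median was 0.61 in WT cells with anti-IgM and 0.6 in Ubqln1-/- cells with LPS. Timm10, a chaperone of the intermembrane space, went from 14.7, 13.9 and 16.3 RPKM to 50.5, 52.4 and 52.5 RPKM (1.79 ± 0.13). Mitochondrial ribosomal proteins rose in 53 of 77 (median 0.47), respiratory chain and ATP synthase subunits in 47 of 76 (median 0.26), and the chaperones and proteases of the organelle in 11 of 14 (median 0.82), with Hspd1, the HSP60 gene, at 1.74 ± 0.14. The mitochondrially encoded CYTB gave -0.05 ± 0.08 (adjusted p = 0.566) and ND1 0.12 ± 0.09 (adjusted p = 0.279, edgeR), which passed with the replicate block (adjusted p = 0.0337).

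Ubiquilins and the triage factors that work beside them rose in 12 of 16 cases (75.0%) and none fell, with a median of 0.39. The median of this list was 0.41 in WT cells with anti-IgM and 0.36 in Ubqln1-/- cells with LPS. Ubqln4 went from 37.6, 41.4 and 43.2 RPKM to 71.0, 79.7 and 80.5 RPKM (0.92 ± 0.11, adjusted p = 1.43e-06), whereas Ubqln2 stayed at 17.3, 17.8 and 18.6 RPKM at rest against 17.3, 18.0 and 17.8 RPKM (-0.02 ± 0.05, adjusted p = 0.775). Get3, the ATPase that delivers tail-anchored proteins, rose (0.82 ± 0.07), as did Rnf126, a ligase of the BAG6 pathway (0.86 ± 0.09). Proteasome genes rose in 37 of 46 cases (median 0.54, as in WT cells with anti-IgM and in Ubqln1-/- cells with LPS). The activator Psme3 rose most among them, from 73.9, 77.5 and 77.3 RPKM to 196, 194 and 203 RPKM (1.38 ± 0.07). The 3 that fell were Psmb8 (-1.07), Psmb9 (-1.19) and Psmb10 (-0.9), the catalytic subunits of the immunoproteasome, while their constitutive counterparts Psmb5 (0.59), Psmb6 (0.47) and Psmb7 (0.51) rose. These 6 genes were named after their values were seen. Cytosolic chaperones rose in 21 of 25 (median 0.79) and genes of folding and stress in the endoplasmic reticulum in 20 of 25 (median 0.84), with Hspa5, coding for BiP, at 155 to 176 RPKM at rest and 400.0 to 453 RPKM with anti-IgM (1.36 ± 0.08). Autophagy and lysosome genes had a median of -0.02, and 7 of 23 rose and 9 fell (30.4% and 39.1%, against 32.9% and 32.4% of all genes). Tfeb was among the falls (-1.34 ± 0.12).

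Genes of the cell cycle and of survival were read next. Myc rose from 29.5, 44.2 and 29.4 RPKM to 313, 329 and 308 RPKM (3.2 ± 0.2). In the list of Myc with its partners and antagonists 3 of 11 genes rose and 5 fell (27.3% and 45.5%, against 32.9% and 32.4% of all genes). Of the antagonists Mxd4 (-1.52 ± 0.17), Mxi1 (-0.67 ± 0.08) and Mxd1 (-0.59) fell and Mnt rose (0.8 ± 0.06). Of 24 genes for G1 cyclins, CDKs and their inhibitors 8 rose and 9 fell (33.3% and 37.5%), near the shares of all genes (32.9% and 32.4%). Among D-type cyclins Ccnd2 rose (1.31 ± 0.18) and Ccnd3 fell (-0.88 ± 0.06). Cdk4, their partner, rose from 78.1, 89.5 and 80.2 RPKM to 227, 252 and 234 RPKM (1.52 ± 0.12) and Cdk6 by 1.74, and the inhibitor Cdkn1b fell from between 76.2 and 79.9 RPKM to between 32.2 and 33.3 RPKM (-1.26 ± 0.07). E2f2 fell from 33.9, 27.1 and 25.0 RPKM to 4.24, 4.43 and 3.76 RPKM (-2.79 ± 0.23). Of 27 DNA replication genes 8 rose, led by Pcna (0.98 ± 0.08), and 4 fell (29.6% and 14.8%, against 32.9% and 32.4% of all genes). Of 16 mitosis genes none rose and 2 fell (12.5%), Aurkb (-0.92 ± 0.16) and Cenpe (-0.75 ± 0.23). The count of mitosis genes that fell was 6 without resting replicate 3, the library that holds the intestinal genes. A link between that count and the intestinal genes was not tested. In the BCL2 family 8 of 14 rose and 5 fell (57.1% and 35.7%, against 32.9% and 32.4% of all genes). The survival gene Bcl2l1 rose from 6.03, 6.55 and 5.2 RPKM to 22.1, 21.3 and 21.2 RPKM (1.86 ± 0.17) and the pro-apoptotic Bcl2l11 by 1.26, while Bcl2 fell from between 10.6 and 12.5 RPKM to between 4.47 and 5.51 RPKM (-1.27 ± 0.1). Bcl2a1b (2.19 ± 0.18) and Bcl2a1d (2.59 ± 0.37) are near-identical copies, so how reads were divided between them is uncertain.

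Interferon-stimulated genes fell in 18 of 24 cases and 1 rose, with a median of -1.3. These shares were 75.0% and 4.17%, against 32.4% and 32.9% of all genes. Gbp3, a GTPase of cell-autonomous defense, went from 40.6, 46.8 and 34.5 RPKM to 10.1, 10.4 and 9.16 RPKM (-2.04 ± 0.12), and Ddx58, the RNA sensor RIG-I, from 20.9, 20.0 and 19.1 RPKM to 5.64, 4.91 and 4.99 RPKM (-1.95 ± 0.21). The gene that rose was Bst2 (0.58), and Isg15 gave -0.07 (adjusted p = 0.854, edgeR). In the JAK, STAT and SOCS list 9 of 17 fell and 4 rose (52.9% and 23.5%, against the same shares of all genes). Jak1 fell from between 190 and 203 RPKM to between 101 and 110 RPKM (-0.88 ± 0.07) and Socs3 by 1.79 on the log2 scale, while Stat5a rose from 13.5, 13.7 and 13.6 RPKM to 26.5, 28.4 and 28.8 RPKM (1.03 ± 0.08).

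The response was then set beside that of Ubqln1-/- cells to LPS at the same time. Both responses are measured from the same resting libraries, so they are given side by side, and the test is the direct one of the 3 anti-IgM against the 3 LPS libraries. In that test 145 genes were higher with anti-IgM (1.02%) and 172 lower (1.21%) past the thresholds, and 2057 were higher (14.5%) and 2380 lower (16.8%) at an adjusted p under 0.05. Of the 44 nucleolar genes 5 were higher and 1 lower with anti-IgM than with LPS, with a median difference of -0.03, and Myc stood at a mean of 317 RPKM with anti-IgM and 352 RPKM with LPS (-0.15, adjusted p = 0.575, edgeR).

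Signalling and immune genes were further apart, beside shares of 14.5% higher and 16.8% lower with anti-IgM over all genes. Of 24 interferon-stimulated genes 23 were lower with anti-IgM than with LPS, with a median difference of -2.64, since their median change from rest was -1.3 with anti-IgM and 1.05 with LPS. Of 13 MAPK and G-protein regulators 10 were higher with anti-IgM and none lower (median difference 0.91). Spp1 was at a mean of 81.7 RPKM with anti-IgM and 0.781 RPKM with LPS (6.74, adjusted p = 2.43e-12), Il1r1 at 3.11 and 0.0412 RPKM (6.09, adjusted p = 6.43e-07) and Egr2 at 142 and 4.2 RPKM (5.08, adjusted p = 1.95e-11). Syk was at a mean of 46.7 RPKM with anti-IgM and 238 RPKM with LPS (-2.35, adjusted p = 1.95e-11), and its difference between LPS and rest was -0.01 (adjusted p = 0.907, edgeR). Of 20 immediate early genes 10 were higher with anti-IgM and 5 lower (median difference 0.87). Ccnd2 was lower with anti-IgM, at 32.9 RPKM against 203 RPKM with LPS (-2.63, adjusted p = 1.48e-08, edgeR). Of 14 NF-kB genes 12 were lower with anti-IgM (median difference -0.7), among them Bcl3 (-2.47), and Bcl2l1 was lower as well (-2.0).

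**Figure D3:**
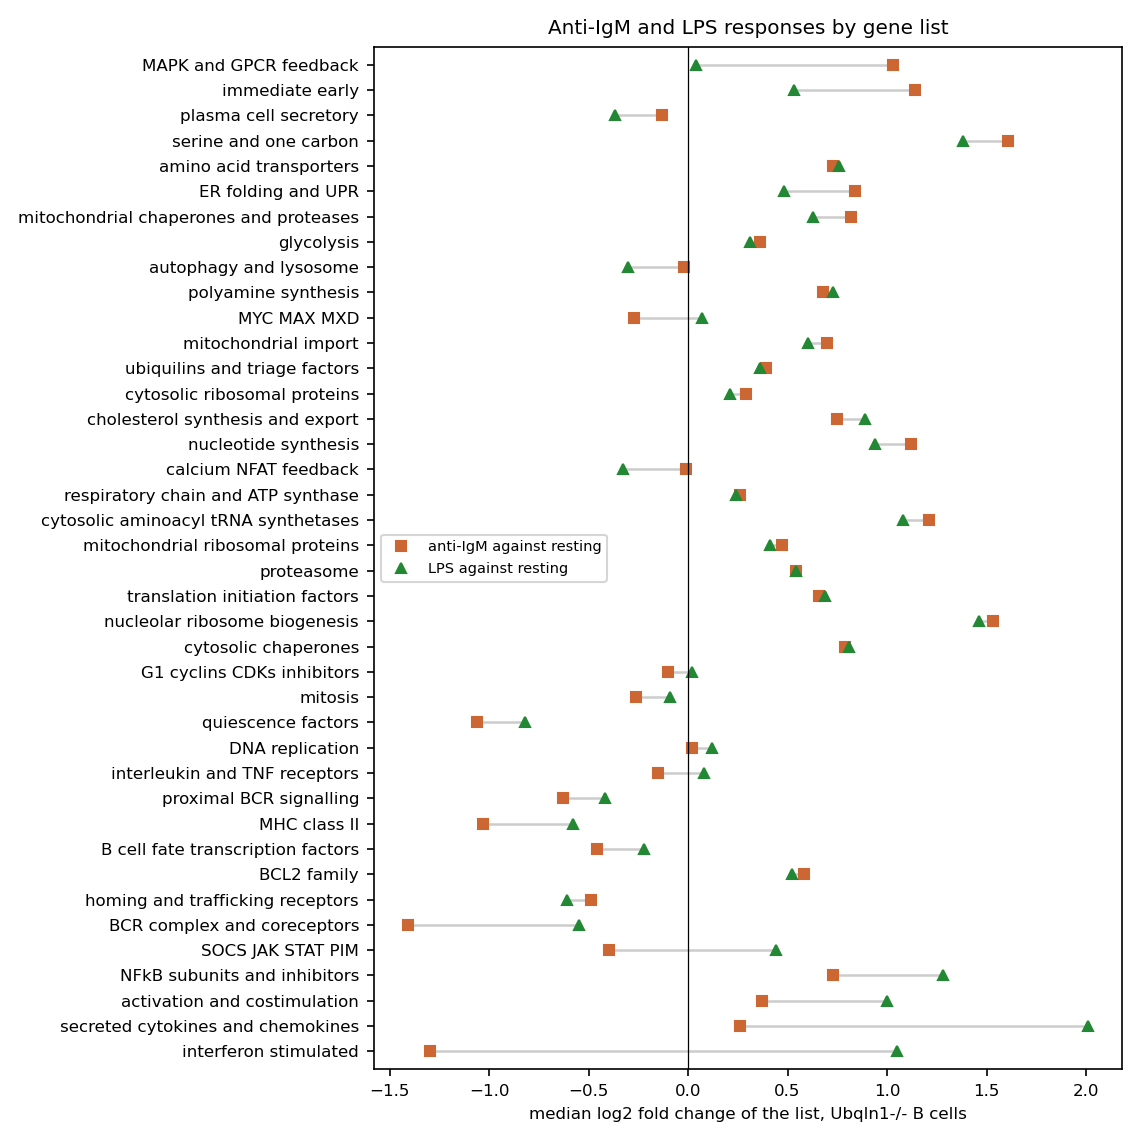
Median log2 fold change of each of the 40 lists in Ubqln1-/- B cells, anti-IgM against resting (squares) and LPS against resting (triangles), joined by a line and ordered by the median difference between the stimuli. Nucleolar genes lie close together (1.53 and 1.46), while interferon-stimulated genes lie on opposite sides of 0 (-1.3 and 1.05).

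Whether the response differed from that of WT cells was tested as the difference between the log2 fold changes, over all genes. No gene of 14161 had an adjusted p under 0.05 by edgeR (0%), and 140 had an unadjusted p under 0.05. DESeq2 and limma with voom also gave 0 genes, with 94 and 143 at an unadjusted p under 0.05. With the replicate block, by which same-numbered samples are paired, edgeR again gave 0 genes and 377 at an unadjusted p under 0.05. If no gene differed, a share of about 0.05 of the genes would be expected there, and each of these counts is below that share. The tests can thus miss differences, and 0 genes does not show that the responses are the same. The smallest adjusted p was 0.9999 without and 0.9996 with the block. The median SE of the difference was 0.16, and for 11429 genes (80.7%) the 95% interval lay within -1 to 1, so a difference of 2 times or more was outside their interval. For the 516 genes past the thresholds in Ubqln1-/- cells this held for 266, and for the others the interval reached beyond that range. With the block the interval lay within that range for 11861 genes (83.8%) and for 324 of the 516. The intervals below are those without the block.

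For the genes that define the response the intervals ran as follows. The Egr2 response differed by 0.09 (95% interval -0.43 to 0.61) and the Spp1 response by 0.16 (-0.41 to 0.73), with WT changes of 4.17 and 4.62. Myc differed by 0.0 (-0.54 to 0.54) and Ccnd2 by 0.12 (-0.43 to 0.66). Ccnd3 fell by 0.88 in Ubqln1-/- and by 1.08 in WT cells on the log2 scale, a difference of 0.2 (0.03 to 0.38) whose adjusted p was 0.9999. The interval was wide for Il1r1 (-2.09 to 1.78), Pdcd1 (-1.58 to 1.82) and Cplx2 (-1.72 to 1.78). Of the 40 lists, the median difference lay between -0.13 (activation and costimulation) and 0.07 (BCR complex), and mitochondrial import (0.03), proteasome (0.01) and ubiquilin (0.03) lists were inside that range. The 5 genes with the smallest unadjusted p were Trim46, Lrrd1, Efna1, Garnl3 and Gm12216. Trim46 fell from 2.53, 1.52 and 1.88 RPKM to 0.416, 0.372 and 0.442 RPKM in Ubqln1-/- cells (-2.27), against -1.03 in WT cells, and the other 4 stayed under 1 RPKM in every Ubqln1-/- sample of this comparison.

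**Figure D4:**
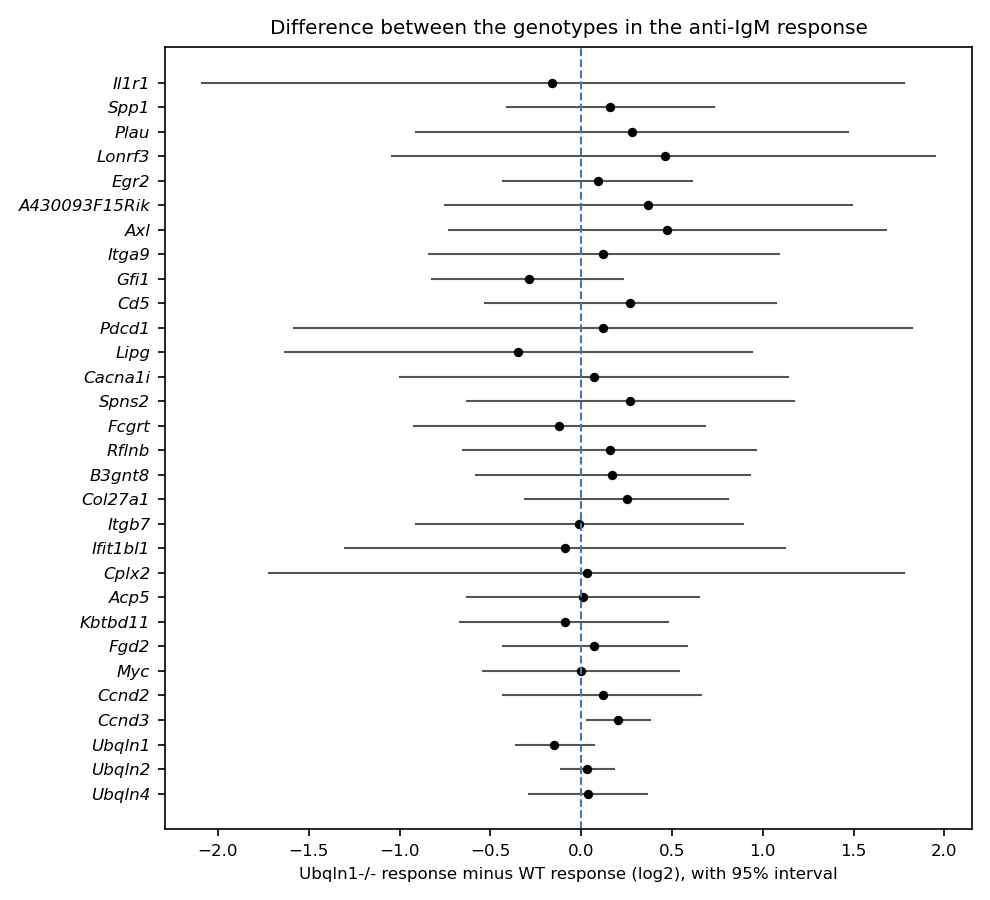
Difference between the Ubqln1-/- and WT log2 responses to anti-IgM for the 24 genes with the largest changes and 6 genes of the study, as points with 95% intervals from edgeR, and a dashed line at 0. The interval covers 0 for every gene shown except Ccnd3 (0.03 to 0.38).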

How the data were processed

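RNASeq libraries were made from polyA RNA of cultured splenic B cells with an unstranded kit and read as single ends of 50 bases. Per the labels and methods, GSNAP was the aligner and GRCm38 the build. The authors deposited, for every Entrez gene, its exonic read count without normalization, its RPKM and its width. The counting program and annotation release are not given in the sources used here. The deposited RPKM was not used, since it was divided by a library total larger than the sum of the counts.

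From the counts, edgeR 4.0.16 in R 4.3.3 was run over all 18 samples with 1 term per group, its expression filter (14161 of 28096 genes kept) and TMM scaling. The biological coefficient of variation was 10.1%. The SE was the log2 fold change divided by the square root of F. RPKM in the text is the count over gene width and TMM-scaled library. Contrasts were anti-IgM against resting and against LPS in Ubqln1-/- cells and the difference of the anti-IgM responses between genotypes. Names came from RefSeq and, for 16 genes, GENCODE, for 25051 of 28096 genes (95.8% to 96.2% of counts). Replicate 1 is the sample without a number beside samples 2 and 3. Same-numbered Ubqln1-/- resting and anti-IgM samples deviated together from their group means (r = 0.329, 0.257 and 0.325 for numbers 1, 2 and 3), so the numbers pair them. Between the genotypes as well as conditions the lowest such r was 0.055. No 2 libraries of a group agreed within sampling noise.

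Named genes are the 12 largest rises and falls past the study thresholds with a mean of at least 10 CPM and no overlap, up to 4 members per list with the smallest p and those past the thresholds, genes named by the study, the 5 smallest p of the difference between genotypes, the 5 highest levels, and up to 3 genes counted in 1 condition only. Not all are in the text, and other list members in the text were picked after their values were seen. The members, lists and tests were chosen with earlier results of these data known. Alternatives were DESeq2 1.42.0, limma 3.58.1 with voom, RLE scaling, no filter, a minimum of 10 counts in all samples, a fit with the replicate block, only the compared samples, a log2 fold change over 1, unscaled library sizes for levels, and leaving out each sample. The scripts were tested on simulated counts. Other values used Python 3.11.15, numpy 2.4.6 and pandas 2.3.3, with figures by matplotlib 3.10.9. Genes Ighm, Ighd, Oaz1, Oaz2, Hmgcs1, Immp2l and Hbb-bt were not analysed here.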

Additional observations from a re-analysis of the deposited data

Results flagged for a closer look

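Lrrd1 moved in opposite directions in the genotypes, with every anti-IgM sample above every resting sample in Ubqln1-/- cells and below every one in WT cells. Its level was 0.193 to 0.241 RPKM at rest and 0.278 to 0.395 RPKM with anti-IgM in Ubqln1-/- cells, and 0.29 to 0.39 RPKM and 0.122 to 0.244 RPKM in WT cells. The log2 difference between the responses was 1.38 (95% interval 0.56 to 2.19), with an adjusted p of 0.9999 by edgeR over all genes. The counts behind it were 12 to 35 per Ubqln1-/- library, and its rise (0.64, adjusted p = 0.0456, edgeR) was not called by DESeq2, by limma with voom, without the filter, or without any 1 of 5 of the 6 Ubqln1-/- samples.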

How the results depend on the processing

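With at least 10 counts required in every sample, 335 genes (150 higher) passed the thresholds of the study in Ubqln1-/- cells and 170 (82 higher, 88 lower) in anti-IgM against LPS. Genes absent from 1 condition cannot pass that filter. With a log2 fold change over 1 in place of 2 these counts were 2377 (1133 higher, 1244 lower) and 887 (387 higher, 500.0 lower). Leaving out each sample gave 442 to 511 genes (221 to 248 higher, 212 to 263 lower) past the thresholds, 8487 to 8730 (4386 to 4539 higher, 4091 to 4335 lower) at an adjusted p under 0.05, and 269 to 292 (120 to 145 higher, 138 to 159 lower) against LPS. The difference between genotypes stayed at 0 genes in each. With the replicate block, which uses the pairing of the numbers, 550 genes passed the thresholds, 10010 had an adjusted p under 0.05, 362 differed from LPS and 0 differed between genotypes. DESeq2 gave 525 genes past the thresholds, limma with voom 497, RLE scaling 515, no filter 512 and only the compared samples 492. Of the 217 named genes tested, calls changed under at least 1 of 13 settings for Cd74, Efna1, Lrrd1 and Mir5107 (lost) and for Aurka, ND1 and Top2a (gained), and no direction reversed. Of these, the block changed the calls of Aurka (adjusted p = 0.0424) and ND1. Genes under 1 RPKM rest on few counts, and their intervals are wide.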

Other observations

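Of 9 tested genes of the plasma cell secretory list 3 rose (1 without resting replicate 3) and 4 fell in Ubqln1-/- cells, with a median of -0.13. These shares were 33.3% and 44.4%, against 32.9% and 32.4% of all genes. The summed level of 5 plasma cell markers was 284 to 312 CPM at rest and 279 to 298 CPM with anti-IgM. The same markers summed to 354 to 585 CPM in resting and 335 to 544 CPM in anti-IgM-treated WT libraries, a difference between genotypes that was not tested. The 6 dendritic cell markers summed to 18.4 to 23.1 CPM at rest and 28.5 to 32.3 CPM with anti-IgM in Ubqln1-/- cells. Of the 5 that were tested 1 rose and none fell at an adjusted p under 0.05 (edgeR), and no member went above 16.78 CPM.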
